A study of Homo sapiens with 16 samples.

Results

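Cells of the human embryonic stem cell line H9 after 1 day of activin A (day 1) were compared with undifferentiated cells (day 0). All samples that the labels place in these groups were taken, 3 biological replicates at day 1 and 4 at day 0, which is 7 of the 14 biological samples and 8 of the 16 arrays of the series. Day 0 replicate 4 was hybridised on a pair of technical arrays, which were averaged. Undifferentiated cells, at passage 40 to 50, were grown on mouse embryonic fibroblast feeders or on Matrigel in medium conditioned by such fibroblasts, with knockout serum replacement and basic FGF at 8 ng/ml. Day 1 cells, of the same line and passage range, were in RPMI-1640 with activin A at 100 ng/ml. Fetal bovine serum was raised stepwise over the course, and its level on day 1 is not given here. Activin, basal medium, serum or its replacement, conditioned medium and basic FGF therefore all differ between the groups, and their parts in any difference cannot be told apart. The labels call the samples biological replicates without saying whether they came from separate cultures, so the p-values measure the spread between these samples, which may be partly technical.

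Activin A binds activin receptors, which phosphorylate SMAD2 and SMAD3. These enter the nucleus with SMAD4 and act with partners such as FOXH1 and EOMES. Nodal, the ligand that patterns the embryo, uses the same route, and strong signalling drives epiblast cells through the primitive streak, where WNT and FGF signals also act, toward definitive endoderm. The comparison asks which genes differ after the initial day of this course, beyond the well known streak markers.

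RNA was measured on Human Exon 1.0 ST arrays, and levels are given as log2(intensity + 1). The 8 arrays had medians of 246 intensity units, the technical pair correlated at 0.981 over all probe sets, and pairs within a group at 0.952 to 0.963 (day 0) and 0.930 to 0.970 (day 1). Day 1 replicate 2 deviated most from its group, with a standard deviation (SD) of deviations of 0.557 against 0.367 to 0.472 in the other 6 samples. Arrays have no read depth; the number of samples limits the precision. Bulk RNA also cannot tell fewer cells of a type from less RNA per cell.

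Few probe sets passed the test on day 1, and their differences were large. Of 18495 probe sets, 20 (0.108%) passed the test, a moderated linear model at an adjusted p of 0.05. They comprised 12 that rose (0.0649%) and 8 that fell (0.0433%). Each differed by at least 2-fold. A single gene symbol was carried by 18 of them, 1 carried several symbols and 1 none. Without a test, 391 probe sets (2.11%) were at least 2-fold higher on day 1 and 612 (3.31%) at least 2-fold lower. The groups did not overlap, with day 1 higher, in 899 probe sets (4.86%), and with day 1 lower in 1224 (6.62%), or 2123 (11.5%) together, while 1891 (10.2%) had an unadjusted p under 0.05. The median difference of all probe sets was 0.03 on the log2 scale, with 52.8% above 0. When the day 3 and day 5 samples entered the same fit, through a shared estimate of spread, 1 probe set (0.00541%) passed, SLC24A2, which was lower. With day 3 replicate 2, a library that stands apart from its group, left out of that fit, 46 passed (0.249%; 25 higher, 0.135%, and 21 lower, 0.114%), 17 of them among the 20.

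**Figure D1:**
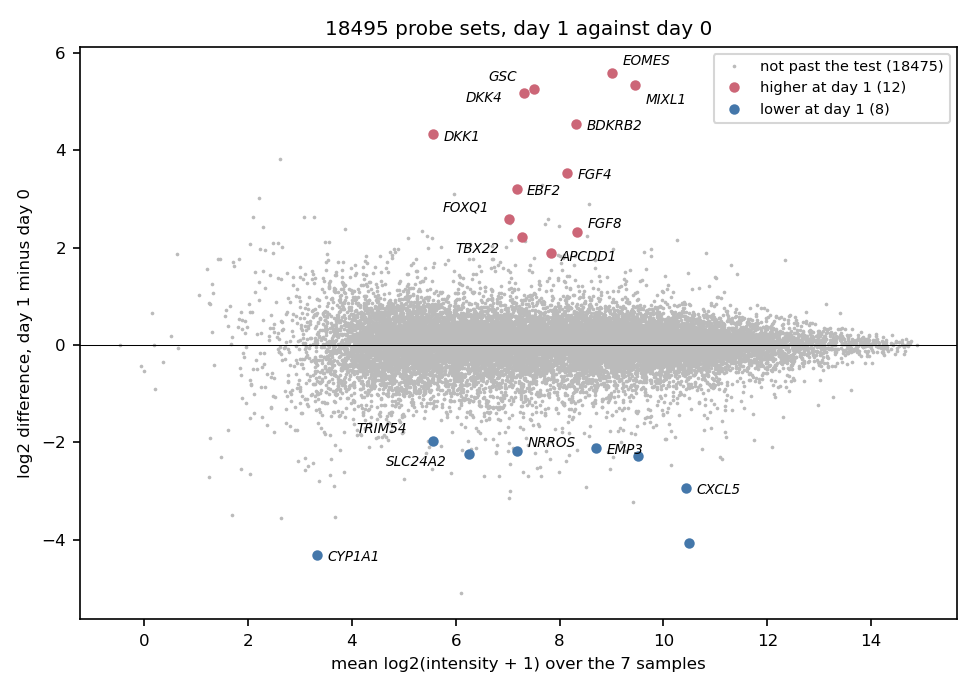
Log2 difference, day 1 minus day 0, of 18495 probe sets against their mean log2(intensity + 1) over the 7 samples. Colour marks the 12 that rose and the 8 that fell past the test; those with 1 gene symbol are named, and EOMES, MIXL1, GSC and DKK4 lie above 5.

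The largest rises were in transcription factors of the primitive streak and organizer. EOMES, a T-box gene that endoderm formation requires, had levels of 7.01, 5.71, 7.28 and 6.46 in the 4 day 0 samples and 12.22, 11.51 and 12.89 in the 3 day 1 samples. MIXL1, a paired-type homeobox factor of the streak, stood at 6.91, 6.51, 7.78 and 7.44 on day 0 and at 12.07, 11.91 and 13.53 on day 1. GSC, the organizer homeobox gene goosecoid, stood at 4.75, 4.82, 6.25 and 5.18 against 10.33, 9.64 and 11.57. For all 3 genes every day 1 sample lay above every day 0 sample by more than the spread within either group, and day 1 replicate 3 was the highest. EOMES rose by 5.59 ± 0.45 (standard error, SE) on the log2 scale, or 48.2-fold (adjusted p 0.00761). MIXL1 rose by 5.34 ± 0.46, 40.6-fold (adjusted p 0.00834), and GSC by 5.26 ± 0.52, 38.4-fold (adjusted p 0.0171). On the linear scale MIXL1 had 90.1 to 219 intensity units on day 0 and 3848 to 11821 on day 1. EOMES and MIXL1 passed the test without any 1 of the 7 samples (adjusted p 0.0204 to 0.0411 and 0.0141 to 0.0459). GSC did not pass without day 0 replicates 1, 2 or 4 (0.0718, 0.0744 and 0.0611) or day 1 replicate 1 (0.0568).

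The other 10 measured members of the streak and organizer list did not pass the test. Over the whole list of 13 measured genes, 12 were above 0 and the median difference was 1.13, against 0.03 over all probe sets. TBXT, the T-box gene brachyury of nascent mesoderm, stood at 7.40, 6.81, 6.90 and 7.54 on day 0 and at 8.25, 8.55 and 9.34 on day 1, a difference of 1.55 ± 0.32 (adjusted p 0.126). Its groups did not overlap, but the difference was far smaller than that of EOMES, and it missed the threshold. EVX1 and SP5, a posterior streak homeobox gene and a WNT-responsive factor, differed by 1.67 and 1.31 with overlapping groups. The LIM homeobox gene LHX1 was at 7.02, 6.96 and 9.34 on day 1 against 6.23 to 6.99 on day 0, and 1 day 1 sample thus lay far above the rest (difference 1.13, adjusted p 0.552). TBX6, a factor of presomitic mesoderm, differed by -0.12.

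Factors of definitive endoderm, which come after the streak, showed no call on day 1. Of 10 measured genes 0 passed, 8 were above 0 and the median was 0.51. GATA6, a zinc finger factor of endoderm, stood at 6.33, 5.71, 7.79 and 6.87 on day 0 and at 8.35, 8.41 and 11.02 on day 1. The groups did not overlap, yet the spread on day 1 was wide and the difference of 2.59 ± 0.73 had an adjusted p of 0.246. HHEX, a homeobox gene of anterior endoderm, differed by 1.51 (adjusted p 0.308) and SOX17, a defining endoderm factor, by 0.95 ± 0.40 (adjusted p 0.474), both with overlapping groups. Against the day 0 mean the list median was 0.18, 0.33 and 1.47 in day 1 replicates 1, 2 and 3, and without replicate 3 it was 0.30.

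**Figure D2:**
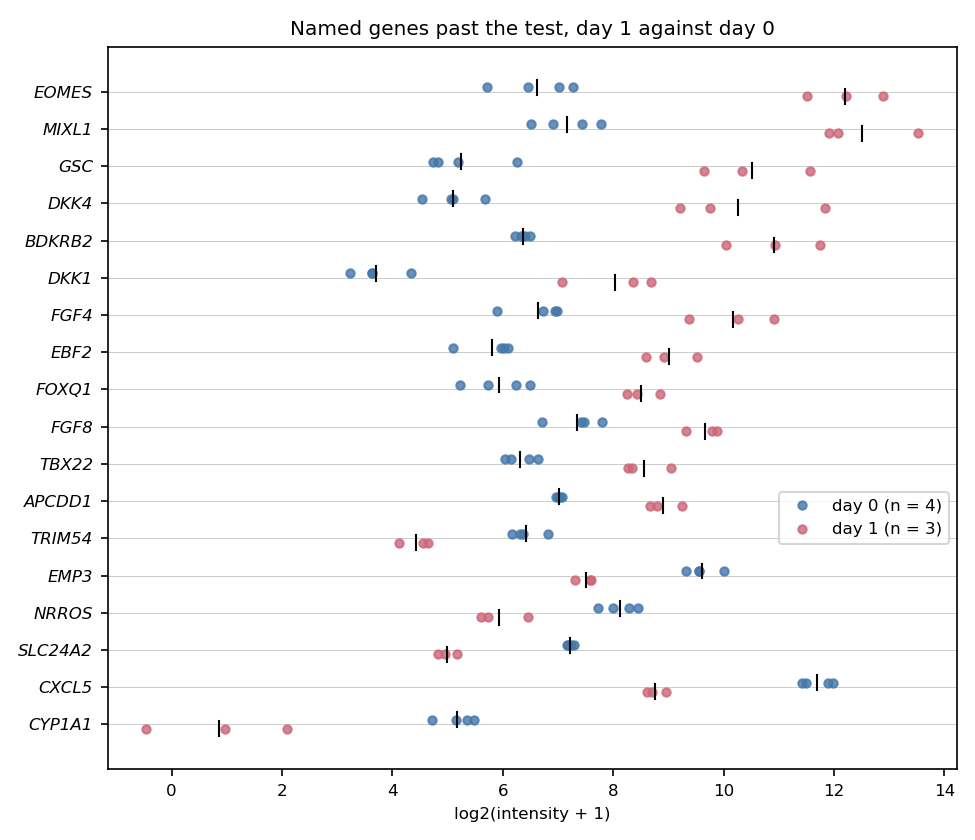
Log2(intensity + 1) of the 18 named genes past the test in the 4 day 0 samples (blue) and the 3 day 1 samples (red); vertical bars are group means. In none of the 18 genes do the groups overlap, and EOMES, MIXL1 and GSC have the largest differences of means among the genes that rose.

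The promoters of the 3 streak factors and of CXCL5, which fell most among the bright named genes past the test, are printed because these genes carry the main differences. Each run is the stretch of 250 bases that ends just before the RefSeq start site, in GRCh38.p14 and 5′ to 3′ on the gene's strand. MIXL1 lies at chr1:226223414-226223663 (plus strand), EOMES at chr3:27722324-27722573, GSC at chr14:94770114-94770363 and CXCL5 at chr4:73998678-73998927 (all minus strand). Capitals mark matches, on either strand, to the FOXH1 motif AATNCACA, the SMAD motif CAGAC or the TCF/LEF motif CTTTGAT.
MIXL1: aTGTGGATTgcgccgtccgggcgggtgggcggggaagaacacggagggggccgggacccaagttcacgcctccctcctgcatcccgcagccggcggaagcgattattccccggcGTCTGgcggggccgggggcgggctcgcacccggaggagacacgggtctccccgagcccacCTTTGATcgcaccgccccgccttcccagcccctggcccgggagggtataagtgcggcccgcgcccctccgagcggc
EOMES: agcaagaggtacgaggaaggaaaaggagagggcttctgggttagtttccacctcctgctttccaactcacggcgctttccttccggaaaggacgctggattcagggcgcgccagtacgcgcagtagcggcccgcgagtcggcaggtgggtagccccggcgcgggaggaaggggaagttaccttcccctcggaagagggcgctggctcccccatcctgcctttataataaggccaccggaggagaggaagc
GSC: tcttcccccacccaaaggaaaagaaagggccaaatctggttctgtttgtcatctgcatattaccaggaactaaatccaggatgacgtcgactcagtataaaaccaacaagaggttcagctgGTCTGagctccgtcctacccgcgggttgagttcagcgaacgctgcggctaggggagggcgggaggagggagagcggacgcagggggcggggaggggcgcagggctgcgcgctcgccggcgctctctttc
CXCL5: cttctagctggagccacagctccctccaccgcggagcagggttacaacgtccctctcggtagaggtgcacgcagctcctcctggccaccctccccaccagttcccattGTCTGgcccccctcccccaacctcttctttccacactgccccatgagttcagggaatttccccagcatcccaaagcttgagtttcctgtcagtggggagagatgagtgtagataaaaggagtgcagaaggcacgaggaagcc
The MIXL1 window held a FOXH1 match with its first base at position -249 from the start site, a SMAD match at -136 and a TCF/LEF match at -76. GSC had a SMAD match at -129 and CXCL5 at -142, and the EOMES window had none of these letters. Among all 35116 RefSeq windows of this length, 2.89% held the FOXH1 motif, 38.0% the SMAD motif and 2.26% the TCF/LEF motif. Windows were searched for 14 of the 18 named genes past the test. Of these 14, 8 had the SMAD motif, 1 the FOXH1 motif and 1 the TCF/LEF motif. The remaining named genes past the test were not searched, so the counts do not cover them. The T-box motif AGGTGTGA was in 0 of the 14 and in 0.786% of all windows. A gene was counted for a match in any of its windows, and EMP3 and TBX22 had 2 each. The shares are of single windows, so the counts and shares are not of the same unit. These matches describe the letters and are not binding data.

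Secreted growth factors and WNT inhibitors formed the next group of rises. FGF4, a growth factor of the epiblast and streak, stood at 6.72, 6.98, 6.94 and 5.89 on day 0 and at 9.37, 10.25 and 10.91 on day 1. FGF8, which cells need to leave the streak, stood at 7.47, 6.71, 7.80 and 7.41 and then at 9.32, 9.88 and 9.80. All day 1 samples of both genes were higher than all day 0 samples. FGF4 rose by 3.54 ± 0.41, 11.7-fold (adjusted p 0.0308), and FGF8 by 2.31 ± 0.29, 4.98-fold (adjusted p 0.0437). FGF4 kept its call only without day 1 replicate 1 (0.028) and missed it at 0.0646 to 0.111 without each other sample, and FGF8 missed it without each of the 7 (0.0793 to 0.138). FGF17, a close relative of FGF8, stood at 5.66, 5.17, 7.87 and 6.29 against 8.71, 8.17 and 11.71, a difference of 3.28 ± 0.92 that did not pass (adjusted p 0.244). Of the 17 measured FGF ligands, 2 passed, 13 were above 0 and the median was 0.32, so most ligands of the family differed little.

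The WNT inhibitors DKK1 and DKK4, secreted proteins that block the LRP co-receptors, and APCDD1, a membrane-bound inhibitor, also rose. DKK4 stood at 5.06, 5.68, 4.53 and 5.10 on day 0 and at 9.20, 9.75 and 11.84 on day 1. DKK1 stood at 4.34, 3.63, 3.23 and 3.62 and then at 7.08, 8.68 and 8.36. APCDD1 was almost the same in the 4 day 0 samples, between 6.96 and 7.07, and stood at 8.80, 8.67 and 9.25 on day 1. The day 1 samples of all 3 genes lay clear of day 0, with DKK4 far higher in replicate 3 than in the others. DKK4 rose by 5.17 ± 0.59, 36.0-fold (adjusted p 0.0308), DKK1 by 4.33 ± 0.42, 20.1-fold (adjusted p 0.0171), and APCDD1 by 1.89 ± 0.21, 3.71-fold (adjusted p 0.0262). DKK1 started near the low end of the array scale, and its difference was 3.30 with a pseudocount of 16. DKK4 passed only without day 1 replicates 1 or 3 (0.0678 to 0.116 otherwise), and APCDD1 only without day 1 replicate 2 (0.0646 to 0.118 otherwise). DKK1 did not pass without day 0 replicates 2, 3 or 4 (0.0744, 0.0722 and 0.0603) or day 1 replicate 3 (0.0679). In the fit of 13 samples DKK4 missed the threshold (0.0605), while DKK1 and APCDD1 passed. Of 15 measured WNT inhibitors, these 3 passed, 10 were above 0 and the median was 0.27. Leaving out day 0 replicate 4 gave a median of 0.11, day 1 replicate 3 one of 0.16 and day 0 replicate 2 one of 0.18.

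Among the remaining genes that rose were a receptor and 3 transcription factors. BDKRB2, the bradykinin B2 receptor, a G protein-coupled receptor, stood at 6.33, 6.23, 6.40 and 6.49 on day 0 and at 10.94, 10.05 and 11.75 on day 1. The 4 day 0 samples were within a narrow band, and all day 1 samples were far above it. BDKRB2 rose by 4.55 ± 0.37, 23.5-fold (adjusted p 0.00761), and passed without any 1 of the 7 samples (0.00655 to 0.0459). It was among the 4 genes, with MIXL1, EOMES and CXCL5, for which this held.

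EBF2, a helix-loop-helix factor of the early B-cell factor family, stood at 5.10, 6.02, 5.97 and 6.10 on day 0 and at 9.51, 8.59 and 8.92 on day 1. The gene rose by 3.21 ± 0.33, 9.25-fold (adjusted p 0.0194). FOXQ1, a forkhead factor, stood at 5.74, 5.23, 6.49 and 6.24 and then at 8.42, 8.25 and 8.84, and rose by 2.58 ± 0.33, 5.98-fold (adjusted p 0.0437). TBX22, an X-linked T-box repressor known from palate formation, stood at 6.04, 6.47, 6.63 and 6.14 and then at 8.27, 9.04 and 8.34, and rose by 2.23 ± 0.27, 4.69-fold (adjusted p 0.0341). None of these groups overlapped. EBF2 passed without day 0 replicate 1 or day 1 replicate 2 and missed otherwise (0.0568 to 0.0832). TBX22 passed only without day 1 replicate 2 (0.0889 to 0.117 otherwise), and FOXQ1 missed without each of the 7 (0.0793 to 0.178). Over the 12 genes that rose, day 1 replicate 3 was the highest sample in 8, replicate 2 in 3 and replicate 1 in 1.

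The genes that fell were of mixed function. CXCL5, a chemokine that attracts neutrophils, was bright in undifferentiated cells, at 11.49, 11.43, 11.98 and 11.90, and stood at 8.70, 8.97 and 8.62 on day 1. SLC24A2, an exchanger of sodium for calcium and potassium, stood at 7.23, 7.29, 7.18 and 7.17 on day 0 and at 4.96, 4.83 and 5.18 on day 1. In both genes the samples of a group lay close together, and the gap between the groups was several times the spread. CXCL5 fell by 2.93 ± 0.22 on the log2 scale, 7.64-fold (adjusted p 0.00761), and passed without any 1 sample (0.0235 to 0.0411). SLC24A2 fell by 2.23 ± 0.18, 4.70-fold (adjusted p 0.00761), and missed only without day 0 replicate 2 (0.053). Its day 1 level was dim, and with a pseudocount of 16 its difference was -1.81.

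EMP3, a small membrane protein of the PMP22 family, stood at 9.55, 9.56, 9.33 and 10.00 on day 0 and at 7.58, 7.61 and 7.31 on day 1. NRROS, a protein that tethers latent TGF-beta in myeloid cells, stood at 8.30, 8.00, 8.45 and 7.73 and then at 5.74, 6.46 and 5.61. EMP3 fell by 2.11 ± 0.22, 4.31-fold (adjusted p 0.0226), and NRROS fell by 2.18 ± 0.28, 4.54-fold (adjusted p 0.047). The groups of both genes lay apart, but each passed in only 1 of the 7 fits that left out a sample, that without day 1 replicate 2. Otherwise the adjusted p was 0.0535 to 0.111 for EMP3 and 0.0703 to 0.234 for NRROS, and NRROS also missed in the fit of 13 samples (0.143).

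TRIM54 and CYP1A1 also fell; they lie outside the naming rule, being dim, and are named after their values were seen so that all 18 genes are given. TRIM54, a muscle RING finger protein, stood at 6.82, 6.36, 6.32 and 6.16 on day 0 and at 4.64, 4.11 and 4.55 on day 1, and fell by 1.98 ± 0.24 (adjusted p 0.0342). CYP1A1, a cytochrome P450 enzyme that the aryl hydrocarbon receptor induces, stood at 5.14, 5.48, 4.72 and 5.35 and then at -0.46, 2.10 and 0.97. Day 1 intensities of CYP1A1 were -0.273, 3.27 and 0.955 units, at the floor of the table, so its difference of -4.31 ± 0.54 (adjusted p 0.0405) gives no usable fold, and it was -1.57 with a pseudocount of 16. TRIM54 missed the threshold without each of the 7 samples (0.0646 to 0.131), and CYP1A1 passed only without day 1 replicates 1 or 2 (0.105 to 0.139 otherwise).

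The naming rule filled the bright genes that were lower on day 1 with 9 that missed the threshold. These were IGSF21 (-1.65, adjusted p 0.0638), the actin nucleator COBL (-1.46, 0.0641), smooth muscle gamma actin ACTG2 (-2.30, 0.0703), the glycolytic enolase ENO2 (-1.48, 0.0718) and NLRP7 (-2.18, 0.0785). The glutamate receptor subunit GRIN2D (-1.59, 0.0877), the LIM protein CSRP1 (-2.39, 0.0877), the actin-bundling protein LCP1 (-2.14, 0.088) and GARIN1B (-3.22, 0.088) completed them. All 9 had groups that did not overlap, which the rule required. With a pseudocount of 16 each had an adjusted p of 0.027 to 0.0372, and in the fit of 13 samples NLRP7, LCP1 and GARIN1B passed (0.0366, 0.0366 and 0.0487).

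Levels on the later days are given as a description with no test. FGF4 was at 6.22, 6.04 and 5.94 in the 3 day 3 samples and at 5.38, 4.42, 3.50 and 3.20 on day 5, all below the day 1 samples. EBF2 was at 5.88, 3.85 and 5.46 on day 3 and at 4.85 to 6.41 on day 5, with its lowest value in day 3 replicate 2. TBX22 stood at 6.20, 7.78 and 5.54 and then at 6.04 to 6.82, also below every day 1 sample. For these 3 genes day 1 held the highest levels of the course.

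MIXL1, EOMES, GSC and BDKRB2 remained high in day 3 replicates 1 and 3 and on day 5, where MIXL1 stood at 11.22 to 12.90. In day 3 replicate 2, whose values go against its group, MIXL1 was at 7.64, EOMES at 6.51 and BDKRB2 at 5.03. FOXQ1 was at 6.43, 4.96 and 7.31 on day 3 and higher again, at 9.17 to 10.51, on day 5. SLC24A2 stayed low throughout, at 4.91, 5.27 and 5.05 and then at 4.42 to 5.48. CXCL5 was lowest on day 1 and stood at 10.01, 12.25 and 9.81 on day 3 and at 9.37 to 10.38 on day 5, and EMP3 too was back at 8.34 or above in all 7 later samples. APCDD1 was at 9.49, 5.89 and 9.08 on day 3 and at 6.79 to 7.79 on day 5.

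**Figure D3:**
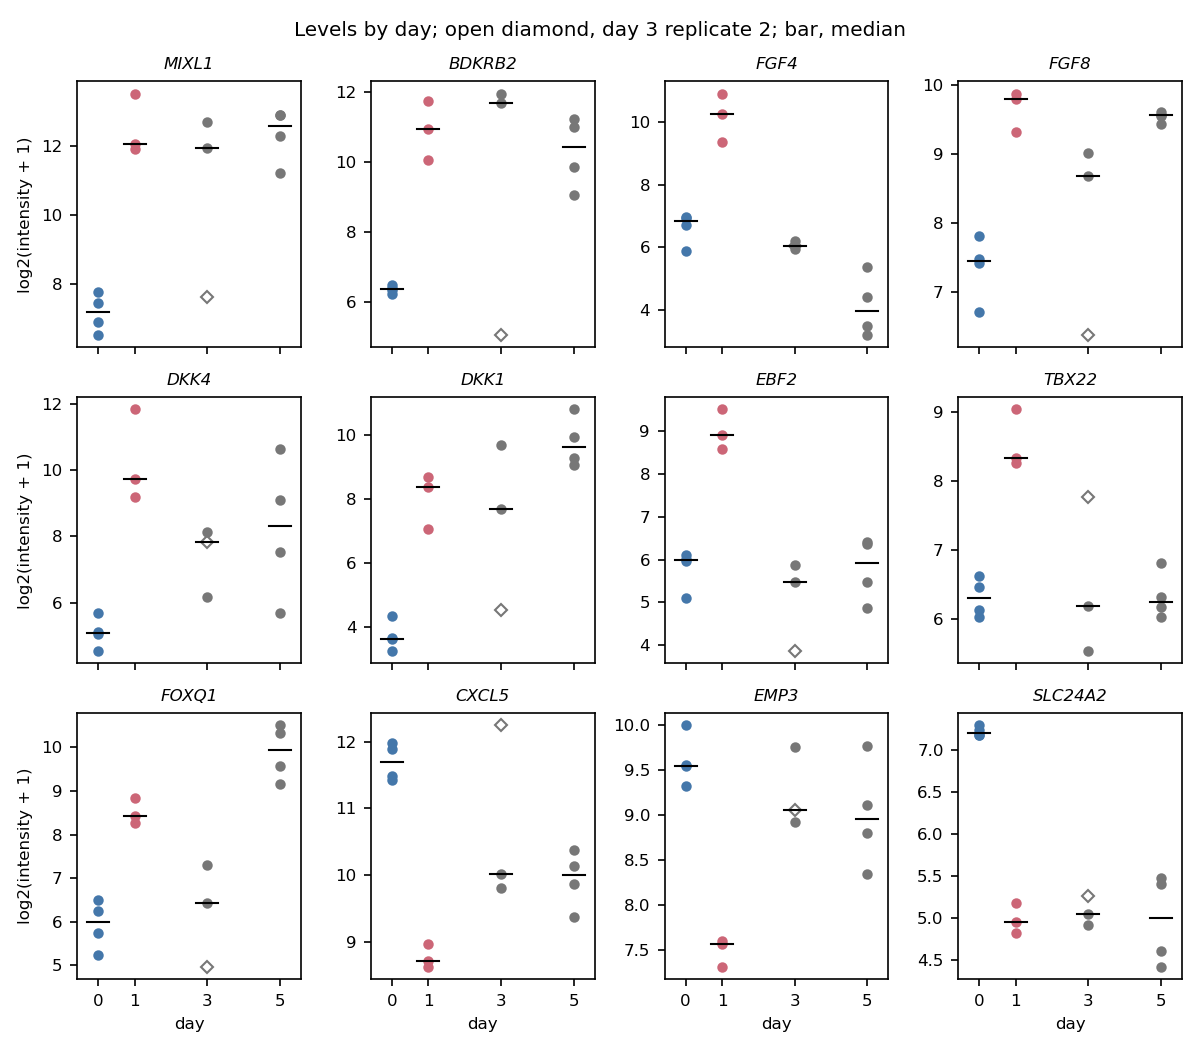
Log2(intensity + 1) of 12 genes past the test in each sample on days 0, 1, 3 and 5 (4, 3, 3 and 4 samples); bars are medians over all samples of a day, and the open diamond is day 3 replicate 2. FGF4, EBF2 and TBX22 are highest on day 1, and SLC24A2 stays low from day 1 on.

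The remaining values are given by gene list, starting with the signalling pathways. The 32 lists held 694 genes, of which 578 could be measured on a probe set with no other symbol. Over all probe sets day 1 lay entirely above day 0 in 4.86% and entirely below in 6.62%, and counts of members whose groups lay apart are to be read against these shares. The sign of the median held without each of the 7 samples in 16 lists and changed without at least 1 of them in 16, so medians near 0 have no direction. Of the nodal ligands, co-receptor and antagonists, 0 of 10 measured passed, 5 were above 0 and the median was -0.02. GDF3, a ligand of the family, stood at 8.90, 9.47, 10.27 and 8.70 on day 0 and at 10.75, 12.03 and 11.69 on day 1, a difference of 2.15 ± 0.44 (adjusted p 0.126, and 0.0465 in the fit of 13 samples). NODAL differed by 1.38 ± 0.30 (0.143), its antagonist CER1 by 1.75 ± 0.51 (0.263) and the activin-binding protein FST by 1.32 ± 0.32 (0.175). All 4 had day 1 samples above every day 0 sample, against 4.86% of all probe sets, while INHBA, the gene of activin A itself, and INHBE had day 1 below day 0 (-1.15 and -0.88). LEFTY1 and LEFTY2 share probe sets that carry several symbols and are not given. Receptors, SMADs and their feedback regulators differed little. Of 21 measured genes 0 passed, 0 had groups that did not overlap, and differences ran from -0.64 to 0.59.

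FGF receptors and ERK feedback genes gave 0 calls among 18, with a median of 0.06. The phosphatase DUSP6, a feedback target of ERK, was at 11.46 to 11.84 on day 0 and 12.30 to 12.53 on day 1 (0.77 ± 0.19, adjusted p 0.197), and the FGF carrier FGFBP3 differed by -1.38 ± 0.24 (0.0971). Neither passed. Of 30 WNT ligands and receptors 0 passed, and 3 had groups that lay apart, all higher (4.86% of all probe sets did). WNT3, the ligand needed to form the streak, stood at 6.91, 7.14, 7.56 and 7.56 against 8.99, 8.74 and 9.53, a difference of 1.79 ± 0.27 (adjusted p 0.0758). WNT7B differed by 1.60 ± 0.31 (0.113) at a dim level and the receptor ROR2 by 1.84 ± 0.52 (0.247). Among 15 WNT target genes, where 0 passed and the median was 0.19 (0.34 and 0.12 without day 1 replicates 2 and 3), the feedback inhibitor NKD1 differed by 1.09 and the receptor LGR4 by -0.74.

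BMP, Notch and retinoic acid genes gave 0 calls among 24, 15 and 15 measured members, with medians of -0.01, -0.04 and 0.06. In the BMP list the inhibitory SMAD6 differed by 1.01 ± 0.21 (adjusted p 0.126), the ligand BMP7 by -1.03 ± 0.22 (0.141) and the antagonist GREM1 by -2.17 ± 0.60 (0.236). The Notch ligand JAG1 stood at 9.09 to 10.24 on day 0 and at 8.13 to 8.24 on day 1, a difference of -1.45 ± 0.29 (0.117). In the retinoic acid list the carrier CRABP2 and the retinal reductase DHRS3 differed by -1.65 and -1.51 (0.11 and 0.0971), while the retinol dehydrogenase RDH10 and the retinol carrier RBP4 differed by 1.68 and 1.61 (0.202 and 0.186). Each of these genes had groups that did not overlap, as did 11.5% of all probe sets in either direction.

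**Figure D4:**
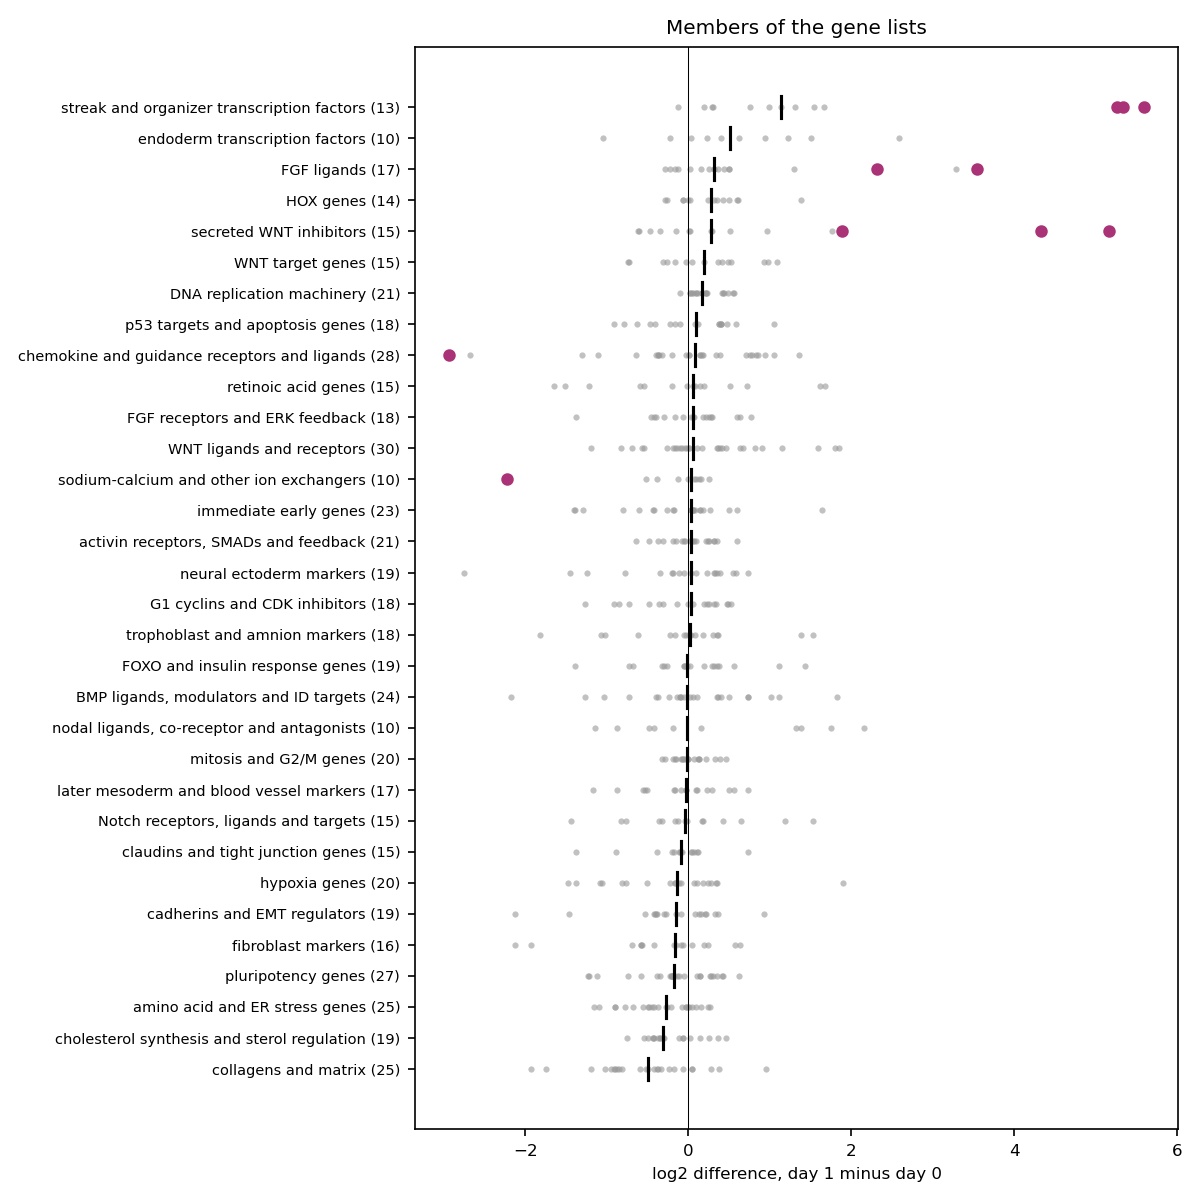
Log2 difference, day 1 minus day 0, of each measured member of 32 gene lists, ordered by median (black bar), with the number of measured members in brackets; large purple points passed the test. The streak and organizer list has the highest median (1.13) and collagens and matrix the lowest (-0.50).

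Genes of the pluripotent state gave no call. Of 36 listed genes 27 were measured alone, 0 passed, 10 were above 0 and the median was -0.17. Without day 0 replicates 1 or 2 the median was -0.07 and -0.06, and without day 1 replicates 2 or 3 it was 0.0075 and -0.11. POU5F1, NANOG and SOX2 are on probe sets with several symbols and are not given. PRDM14, a repressor that guards pluripotency, stood at 11.86, 11.57, 11.15 and 11.39 on day 0 and at 10.67, 10.55 and 9.59 on day 1, a difference of -1.22 ± 0.31 (adjusted p 0.209). The surface sialomucin PODXL differed by -1.23 ± 0.30 (0.189), SALL1 by -1.12 ± 0.29 (0.212) and the surface protein THY1 by -0.58 ± 0.21 (0.373). These 4 of the 27 had day 1 entirely below day 0, against 6.62% of all probe sets.

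Adhesion genes gave 0 calls. Among 19 cadherins and regulators of epithelial-mesenchymal transition the median was -0.15, and it became -0.01 when day 0 replicate 4 was left out, -0.06 for day 1 replicate 2 and -0.25 for day 1 replicate 3. VIM, the intermediate filament protein vimentin, stood at 12.70, 12.66, 12.63 and 13.77 on day 0 and at 11.65, 11.11 and 11.64 on day 1 (-1.47 ± 0.33, adjusted p 0.15), with day 0 replicate 4 above the rest. TWIST1, a mesenchymal helix-loop-helix factor, differed by -2.12 ± 0.57 (0.232). The mesenchymal cadherin CDH11 lay the other way, at 6.61 to 7.82 on day 0 and 7.90 to 8.37 on day 1 (0.92 ± 0.31, adjusted p 0.327). The tight junction gene CLDN4 stood at 7.23, 7.18, 7.46 and 6.92 against 5.97, 5.69 and 5.80 (-1.38 ± 0.20, adjusted p 0.0746), and CLDN3 differed by -0.88 (0.342).

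Collagens and other matrix genes had the lowest median of the 32 lists. Of 25 measured genes 0 passed, 5 were above 0, 7 had day 1 entirely below day 0 (6.62% of all probe sets did) and the median was -0.50. COL1A1, a chain of fibrillar collagen, stood at 10.71, 10.58, 10.24 and 11.87 on day 0 and at 9.24, 8.27 and 9.24 on day 1, a difference of -1.93 ± 0.43 (adjusted p 0.146). The matrix glycoprotein TNC differed by -1.74 ± 0.59 (0.34) and the laminin-binding NID1 by -0.94 ± 0.30 (0.308), while thrombospondin 2, THBS2, stood at 7.89 to 8.07 on day 0 and at 8.68 to 9.17 on day 1 (0.96 ± 0.20, adjusted p 0.125). The samples differed within groups as well. Against the day 0 mean the list median was 0.64 in day 0 replicate 4 and -1.15 in day 1 replicate 2, against -0.43 and -0.04 in day 1 replicates 1 and 3. Without day 1 replicate 2 the median difference was -0.10, and without day 0 replicate 4 it was -0.24.

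Fibroblast markers, listed because the day 0 cultures could hold feeder cells, were measured for 16 genes. Of these, 0 passed, 5 were above 0, and COL1A1, THY1 and TWIST1 had day 1 entirely below day 0, as 6.62% of all probe sets had. Their summed intensity was 10197 to 15108 on day 0 and 6653 to 9265 on day 1. Bright members weigh most in such a sum. Among them are COL1A1 (mean 10.85 on day 0) and THY1 (11.92), which is also in the pluripotency list. The defining markers DCN, LUM and FAP had means of 4.72, 4.18 and 3.78 on day 0 and 4.96, 4.75 and 3.69 on day 1, and COL3A1 was at 6.05 and 6.09. None of these 4 had groups that lay apart. The feeders are mouse cells and the probes human. The part of feeder cells in the matrix values was not tested.

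Stress and metabolic lists leaned below 0 with 0 calls. In the amino acid and ER stress list 6 of 25 were above 0 and the median was -0.28. SESN2, a leucine sensor, differed by -0.78 ± 0.23 (adjusted p 0.257), the hormone STC2 by -0.90 ± 0.32 (0.355) and the serine synthesis enzymes PHGDH and PSAT1 by -0.48 and -0.37, all with day 1 entirely below day 0. Of the 25 genes, 6 had day 1 entirely below day 0 and 1 entirely above, against 6.62% and 4.86% of all probe sets. Cholesterol synthesis genes had a median of -0.32 with 5 of 19 above 0, and INSIG1, a sterol-responsive regulator, differed by -0.76 (0.322). Without day 1 replicates 1 or 2 the median difference of the cholesterol list was -0.17 and -0.16, and its medians against day 0 were -0.35 and -0.34 in day 1 replicates 1 and 2 but 0.05 in replicate 3. In the hypoxia list (20 measured, median -0.14, and -0.08 without day 1 replicate 1) members differed in opposite ways. PDK1, the kinase that holds pyruvate back from mitochondria, stood at 9.72, 10.23, 10.52 and 9.51 against 11.77, 12.34 and 11.58 (1.90 ± 0.31, adjusted p 0.0946). ENO2, the vasodilator peptide ADM and the glucose transporter SLC2A1 were lower on day 1 in all samples, with differences of -1.48, -1.37 and -1.07. Of the 20 hypoxia genes, 5 had day 1 entirely below day 0 and 1, PDK1, entirely above.

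Cell cycle lists gave 0 calls. DNA replication genes had a median of 0.17 with 20 of 21 above 0 and 0 past the test. The largest difference of any of its members was 0.56, and 2 had day 1 entirely above day 0, as did 4.86% of all probe sets, MCM10 (0.55) and RRM2 (0.21). Without day 0 replicate 4 the list median was 0.06. Mitosis genes had a median of -0.02 and G1 cyclins and CDK inhibitors of 0.03, with CDK6 at -1.27 ± 0.35 (adjusted p 0.236). Among p53 and apoptosis genes (median 0.10, and 0.0038 and 0.21 without day 1 replicates 2 and 3) BCL2L1 differed by -0.79 (0.296), and among FOXO and insulin response genes (median -0.01) the PI3 kinase inhibitor PIK3IP1 differed by 1.43 ± 0.26 (0.102) and the cyclin CCNG2 by 1.12 ± 0.26 (0.17). Of 23 immediate early genes, IER3 differed by 1.64 ± 0.37 (0.154), and EGR1 and the matricellular CCN1 by -1.39 and -1.29 (0.244 and 0.254).

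Chemokine and guidance genes gave 1 call among 28, CXCL5, and 16 were above 0 with a median of 0.08. CXCL14, another chemokine, stood at 8.43, 8.44, 8.68 and 8.63 on day 0 and at 5.26, 4.83 and 7.50 on day 1, a difference of -2.68 ± 0.57 (adjusted p 0.138) with a wide day 1 spread. The semaphorin co-receptor NRP2 differed by -1.30 ± 0.39 (0.269) and the guidance ligand SEMA3D by 1.36 ± 0.37 (0.236). SLC24A2 was the 1 call among 10 ion exchangers, whose median was 0.04. HOX genes (14 measured, 0 past the test) had a median of 0.28 (0.17 without day 0 replicate 4) at dim levels, with HOXD8 at 0.59 (0.317).

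Markers of other lineages that the cultures could hold gave 0 calls. Neural ectoderm genes had a median of 0.03, and PAX6 and SOX1 were dim in both groups (4.39 and 4.98, and 4.46 and 4.35, as group means on day 0 and day 1). OTX1, a head and brain homeobox gene, was at 5.91 to 6.32 on day 0 and at 0.86, 4.01 and 5.39 on day 1, entirely lower but widely spread (-2.76 ± 0.90, adjusted p 0.321). The 0.86, in day 1 replicate 1, lies near the floor of the table, and the difference was -1.50 with a pseudocount of 16. Trophoblast and amnion genes had a median of 0.02, with group means under 5 for CDX2 (4.64 and 4.94) and HAND1 (4.87 and 4.82). TFAP2C, which stem cells express as well, stood at 9.62, 10.02, 10.10 and 10.84 against 8.23, 8.74 and 8.01 (-1.82 ± 0.32, adjusted p 0.0971). Later mesoderm and vessel genes had a median of -0.03, with PECAM1 at 3.81 and 3.30. The markers given for the day 1 stage, MIXL1, EOMES, GSC, DKK4 and FGF4, all rose, as described above. These 5 were chosen with earlier results of these data known, so their rise is not independent evidence of the stage.

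**Figure D5:**
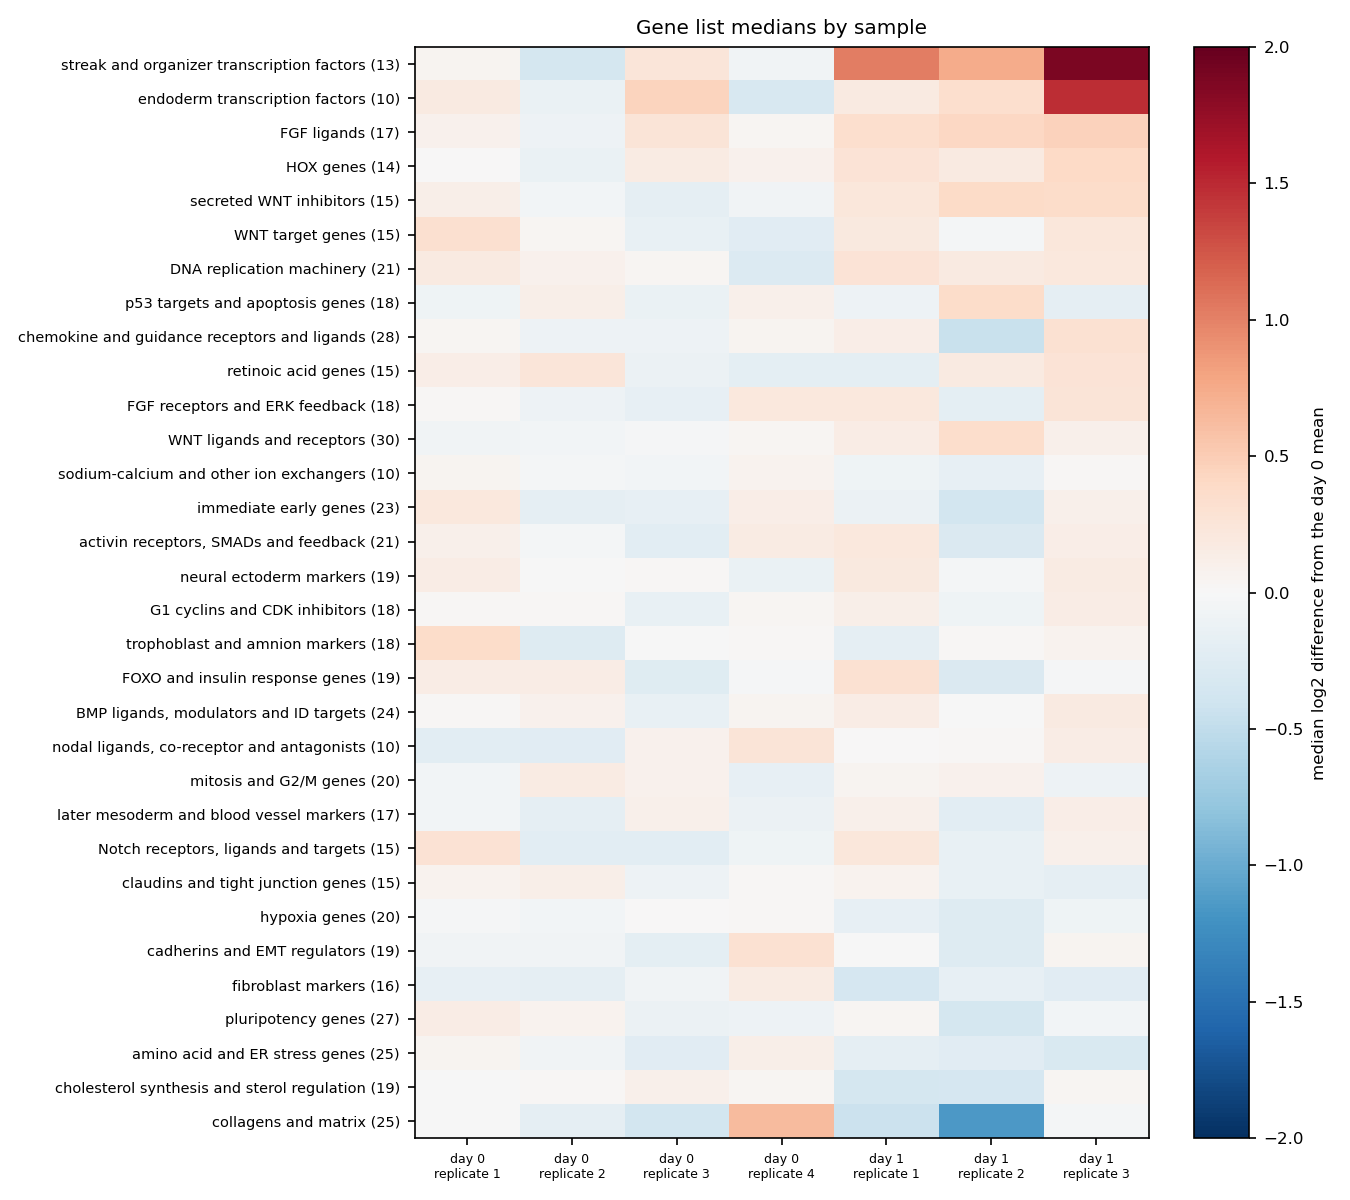
Median log2 difference from the day 0 mean over the members of each of 32 gene lists (rows, number measured in brackets) in the 7 samples (columns). The streak and organizer list is at 1.02, 0.74 and 1.88 in the day 1 samples, and collagens and matrix at 0.64 in day 0 replicate 4 and -1.15 in day 1 replicate 2.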

How the data were processed

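RNA of H9 cells was depleted of ribosomal RNA, amplified, biotinylated and hybridised to Human Exon 1.0 ST arrays, per the labels' protocols. The deposited table holds gene-level intensity for 18495 probe sets on a linear scale, which was inferred from the values; the submitters' processing notes name hg18. How the authors summarised, corrected and normalized the arrays is not given in the sources used here. Array medians of 245.6 to 246.3 show that the values had been brought to one scale. The table gives no detection calls.

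Values were taken to log2 after adding 1, technical arrays were averaged with avearrays, and day 1 was compared with day 0 in limma 3.58.1 (R 4.3.3; lmFit, then eBayes) over the 7 samples (5 residual and 3.17 prior degrees of freedom). P-values were adjusted by Benjamini-Hochberg over 18495 probe sets at 0.05. Differences are on the log2(value + 1) scale, and those of dim genes depend on the added constant. That of CYP1A1 was -4.31 here and -1.57 with a pseudocount of 16. Only the groups compared entered the fit because day 3 replicate 2 goes against its label. Of the probe sets, 14577 carried 1 symbol, 2849 several and 1069 none in GEO's platform annotation; the latter groups were tested and not named. A gene with several probe sets was represented by the brightest. On simulated data, changes of 1, 2, 3 and 4 were called for 16, 70, 88 and 94% of 50 probe sets each, and 3 unchanged ones were called. All changed probe sets were brighter than the median, so the rates do not cover dim genes. More probe sets passed there than in the real comparison, which eases the adjusted threshold, so the rates may be too high for it.

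Named genes were the 5 markers, up to 15 bright genes with 1 symbol and separate groups with the largest differences past the test in each direction, filled up to 12 by p, and up to 3 members of each list (2 where none passed). Members of the lists were written from textbook knowledge. The samples compared, markers, lists, naming rule and fit were chosen with earlier results of these data known, and the lists have no test of their own. Alternatives were other sets of samples, a replicate block, either technical array, quantile normalization, median centring, a filter on dim probe sets, a pseudocount of 16, a variance trend with robust eBayes, 1 probe set per gene, stricter thresholds and leaving out each sample. Gene-by-gene array weights were added after seeing the data. Promoter windows are RefSeq's. Tables were made with pandas 2.3.3 on Python 3.11.15, and figures with matplotlib 3.10.9.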

Additional observations from a re-analysis of the deposited data

Results flagged for a closer look

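In 4 of 78 groups of 4 day 0 samples examined (1 per gene), the sample at an end of the range stood apart, its gap to the nearest other sample exceeding 0.829 of the whole range. Chance gives such a gap in about 1 of 20 groups, which is close to the number seen. EBF2 was at 5.10 in day 0 replicate 1, against 5.97 to 6.10 in the others. Day 0 replicate 4 was the high sample in the other 3 cases: VIM, vimentin, at 13.77 against 12.63 to 12.70, BCL2L1, an apoptosis inhibitor, at 11.77 against 11.09 to 11.18, and LDLRAD4, an inhibitor of activin and TGF-beta signalling, at 8.08 against 7.06 to 7.23. That sample also had the highest list median for collagens and matrix.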

How the results depend on the processing

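The count of 20 probe sets past the test changed with the fit. It was 1 with all 14 samples and 46 (25 higher, 21 lower) with 13 samples. It was 106 (36 and 70) without the dimmest 25% of probe sets, 63 (29 and 34) with a pseudocount of 16, 74 (29 and 45) with a variance trend and robust eBayes, 412 (112 and 300) with array weights and 5 (3 and 2) at a threshold of 0.01. All 20 were among those called with the pseudocount of 16, the trend and the weights. It was 20 under quantile normalization, median centring, a minimum of 2-fold and either technical array, and 22 with 1 probe set per gene. Leaving out each sample in turn gave 4 (day 0 replicate 2) to 26 (day 1 replicate 2). Same-numbered samples of the groups had correlated deviations of 0.07, 0.30 and -0.11, and differently numbered ones of -0.33 to 0.29. These few values cannot tell whether the numbers pair the samples. With the replicate block the count was 3, and 0 with that block over all 14 samples. Of the differences of named genes under the alternatives, 1347 kept their direction and side of the threshold. That number includes genes that had not passed and still did not. Another 128 kept the direction and lost the call, which only the 18 named genes past the test could do. A further 76 gained a call and 0 reversed. List medians moved by more than the spread between replicates in 46 cases and by less in 594. The sample as a random block over the arrays was not run, because 1 technical pair gave no estimate of the correlation, and array weights by REML were not used because the estimate did not converge, so gene-by-gene weights were taken in their place. Dim genes, CYP1A1 above all, are limited by the array floor, and 7 samples limit small differences.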

Other observations

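The actin and muscle genes given here were picked after their values were seen, so their shared direction describes the choice and not such genes in general. None passed the test, and in each day 1 lay entirely below day 0, as in 6.62% of all probe sets. The cardiac and skeletal actins ACTC1 and ACTA1 differed by -1.95 and -2.09 (adjusted p 0.107 and 0.0971), the actin-binding COTL1 by -1.78 (0.0931), calponin CNN1 by -1.03 (0.274), the myosin light chain MYL9 by -1.01 (0.175) and tropomyosin TPM1 by -0.73 (0.404). ACTA1 stood at 12.64, 12.59, 12.72 and 14.02 on day 0 and at 10.96, 10.71 and 11.05 on day 1, so day 0 replicate 4 was high here too.

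Secreted factors besides CXCL5, chosen the same way, gave no call. The related chemokine CXCL6 stood at 8.89, 8.28, 9.43 and 9.20 against 7.12, 7.49 and 6.80 (-1.82, adjusted p 0.0971), the cytokine IL32 differed by -2.62 (0.0971), endothelin EDN1 by -2.62 (0.113), urokinase PLAU by -2.47 (0.108) and annexin ANXA1 by -2.35 (0.0971), all with day 1 entirely below day 0. CXCL8 had overlapping groups, with 6.32 and 6.29 as group means. The cytokine subunit IL23A lay the other way, at 6.24, 6.33, 5.99 and 5.87 against 8.38, 8.47 and 7.52 (2.02, adjusted p 0.0641).

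Of metabolic enzymes seen the same way, the phosphatase PDP1, which opposes PDK1 at pyruvate dehydrogenase, stood at 10.87, 10.84, 10.71 and 11.68 on day 0 and at 8.82, 9.86 and 8.74 on day 1 (-1.89, adjusted p 0.104), opposite in direction to PDK1 (1.90, 0.0946). The lipid phosphatase LPIN1 differed by -1.25 (0.0703), the acetate-activating ACSS2 by -1.45 (0.0971) and the cytidine deaminase CDA by 1.97 (0.0758), each with groups that did not overlap.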
